A study of Mus musculus with 4 samples.

Results

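The genes described here encode the subunits of the oxidative phosphorylation machinery of the mitochondrion, measured in germinal center (GC) B cells of the mouse spleen. Members were taken by gene symbol alone: nuclear genes beginning with Ndufa, Ndufb, Ndufc, Ndufs or Ndufv, the Sdha to Sdhd genes, the Uqcr genes, the Cox4 to Cox8 families and the Atp5 family, together with every protein-coding gene of the mitochondrial genome. The rule found 106 of the 31053 genes in the count matrices, 93 of them nuclear and 13 mitochondrially encoded. Since Ndufaf symbols begin with Ndufa, 8 assembly factors of complex I, which help to build the complex without remaining in it, came in with the subunits and are given apart. Usmg5, 2010107E04Rik and Atpif1, which encode further parts or the inhibitor of ATP synthase, were not covered by the rule.

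Single-cell RNA-seq with the 10x 3' chemistry was run on B220+IgD- spleen cells sorted 10 days after immunization with sheep red blood cells (SRBC), from 8-week-old female mice on a C57BL/6J background, with 1 mouse and 1 library for each of 4 genotypes. All 4 mice carried a Cg1Cre+/- allele, and the control with no floxed allele is called WT. The other mice carried in addition Crebbp fl/+ (C), Kmt2d fl/+ (K) or both Crebbp fl/+ and Kmt2d fl/+ (CK), so that 1 allele of a histone acetyltransferase gene, of a histone methyltransferase gene or of each could be deleted. The Cre is driven from the Cγ1 locus and acts in activated GC B cells, not in T cells, which makes the T-like cells sorted into the same libraries a within-library reference. GC B cells were annotated by the authors as early centroblasts, centroblasts (CB), transitioning CB/CC cells, centrocytes (CC), recycling cells and prememory cells, and 9804 annotated cells entered the comparisons.

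Oxidative phosphorylation passes electrons from NADH through complex I and from succinate through complex II to complex III, then by cytochrome c to complex IV, where oxygen is reduced. Complexes I, III and IV pump protons, and complex V, the ATP synthase, uses their return to make ATP. Every complex except complex II is a mosaic of subunits translated in the cytosol and subunits made inside the mitochondrion from its own genome. In the GC, CBs divide in the dark zone and CCs compete for antigen and T cell help in the light zone.

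The promoters below belong to members whose levels differed in opposite directions between GC B cell subtypes. Atp5g1, Atp5g2 and Atp5g3 encode the same mature protein, subunit c of the ATP synthase rotor, on different chromosomes and behind different promoters. Uqcrh (a hinge subunit of complex III) and Ndufaf4 were among the members higher in CCs, whereas Ndufa5 (a complex I subunit) and Sdhb (the iron-sulfur subunit of complex II) were among those lower in CCs. Each run holds 170 bases, from 120 bases before the RefSeq start to 50 bases from it, 5' to 3' on the gene's strand, with a match to the NRF1 motif or the GABPA motif in capitals.
Atp5g1: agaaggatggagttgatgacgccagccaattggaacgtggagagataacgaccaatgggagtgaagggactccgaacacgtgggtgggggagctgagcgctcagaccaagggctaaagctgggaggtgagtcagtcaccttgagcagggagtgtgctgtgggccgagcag
Atp5g2: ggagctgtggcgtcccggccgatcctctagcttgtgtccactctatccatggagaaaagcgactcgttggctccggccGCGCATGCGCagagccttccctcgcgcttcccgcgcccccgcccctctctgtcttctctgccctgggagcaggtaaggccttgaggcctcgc
Atp5g3: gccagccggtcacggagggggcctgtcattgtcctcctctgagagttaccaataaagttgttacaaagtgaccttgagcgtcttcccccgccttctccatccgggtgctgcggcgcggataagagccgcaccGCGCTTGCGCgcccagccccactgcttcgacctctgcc
Uqcrh: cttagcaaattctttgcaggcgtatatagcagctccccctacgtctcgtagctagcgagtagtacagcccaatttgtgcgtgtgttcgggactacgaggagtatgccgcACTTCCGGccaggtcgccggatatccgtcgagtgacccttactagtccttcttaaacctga
Ndufaf4: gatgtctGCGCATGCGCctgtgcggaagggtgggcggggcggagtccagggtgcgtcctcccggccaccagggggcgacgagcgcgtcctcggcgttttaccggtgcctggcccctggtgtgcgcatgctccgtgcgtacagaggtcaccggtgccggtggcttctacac
Ndufa5: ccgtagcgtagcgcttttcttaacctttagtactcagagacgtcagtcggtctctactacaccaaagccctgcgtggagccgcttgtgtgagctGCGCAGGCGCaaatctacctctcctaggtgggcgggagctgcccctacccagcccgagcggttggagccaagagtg
Sdhb: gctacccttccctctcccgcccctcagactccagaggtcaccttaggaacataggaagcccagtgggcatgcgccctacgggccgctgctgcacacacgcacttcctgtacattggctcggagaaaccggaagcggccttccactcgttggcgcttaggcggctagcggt
On GRCm38.p6 these windows lie at chr11:96075582-96075751 (minus strand, Atp5g1), chr15:102670998-102671167 (minus, Atp5g2), chr2:73911277-73911446 (minus, Atp5g3), chr4:116075021-116075190 (minus, Uqcrh), chr4:24897963-24898132 (plus, Ndufaf4), chr6:24527641-24527810 (minus, Ndufa5) and chr4:140961151-140961320 (plus, Sdhb). The capitals are an NRF1 match in Atp5g2, Atp5g3, Ndufaf4 and Ndufa5, and a GABPA match read on the reverse strand in Uqcrh. Neither motif was found in the printed windows of Atp5g1 and Sdhb, which says only that these letters are absent there.

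NRF1, GABPA and YY1 are transcription factors known to bind promoters of respiratory chain genes. In the window from 250 bases before to 50 after the start, searched on both strands, a match to the NRF1 motif was found in 19 of the 76 nuclear members with a RefSeq promoter, or 25%. The share was 5.19% among all 27025 promoters and 9.46% among the 74 cytosolic ribosomal protein promoters. The letters AAGATGGCG (YY1) were found in 10.5% of member promoters, against 1.64% of all promoters and 5.41% of ribosomal ones. The letters CCGGAAGT (GABPA) were found in 6.58% of member promoters, 4.31% of all and 17.6% of ribosomal ones. Of the 7 printed windows, NRF1 matches lay in those of Atp5g2, Atp5g3 and Ndufa5, lower in CCs, and of Ndufaf4, higher in CCs, and were absent from those of Atp5g1 and Uqcrh, higher in CCs, and of Sdhb, lower in CCs.

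Of the 93 nuclear members, 87 had at least 20 unique molecular identifiers (UMIs, tags that mark each captured transcript) in the annotated cells. Counted by role, they comprised 36 of 36 complex I genes, 4 of 4 in complex II, 8 of 8 in complex III, 14 of 19 in complex IV, 15 of 16 in complex V, all 8 assembly factors, Atp5s and Cox7a2l. The 6 members under 20 UMIs were Cox7b2, Cox8b, Cox8c and a second entry for Atp5o, each at 0, Ndufa4l2 at 6 and Cox6a2 at 8. A count of 0 over the annotated cells allows a level of up to 0.0700 CPM (UMIs of a gene per 1000000 UMIs), for counting error only. Several of these are tissue-restricted isoforms of heart, muscle or testis. All 13 mitochondrially encoded members were detected, from 572 UMIs for mt-Atp8 and 591 for mt-Nd6 to 629399 for mt-Co3. Counts of members with processed pseudogenes in the annotation, among them Uqcrh, Atp5l, Atp5k, Ndufab1 and Atp5c1, are uncertain to the extent that reads were shared with the copies. The split of reads between mt-Atp8 and mt-Atp6, and between mt-Nd4l and mt-Nd4, is likewise uncertain because those genes overlap on shared transcripts.

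The libraries held 8071 to 12852 barcodes and 33270825 to 39803865 UMIs, and annotated cells had a median of 3653 to 4931 UMIs. Across libraries 143 of 38866 barcodes (0.368%) were shared, and 9 of 9795 among the annotated ones. Annotated cells kept at most 8% mitochondrial UMIs and about 2500 genes, and all mitochondrial UMIs came from the 13 members, so the range of their total is bounded by that limit. Annotated CBs and CCs matched their markers: dark zone markers made up 0.203 to 0.309% of UMIs in CBs and 0.0447 to 0.0566% in CCs, and light zone markers 0.0323 to 0.0408% in CBs and 0.154 to 0.176% in CCs. GC B cell markers stood at 0.0134 to 0.0233% in prememory cells, against 0.218 to 0.278% in CBs and 0.0138 to 0.0195% in other B-like cells outside the annotation. Markers of other B cells made up 0.0818 to 0.122% in prememory cells, 0.0399 to 0.0646% in CCs and 0.105 to 0.163% in the other B-like cells. Light zone markers stood at 0.140 to 0.207% in prememory cells and 0.0768 to 0.0837% in the other B-like cells. Cells of the B220+IgD- gate also included T-like clusters, with 1349 to 2753 cells per library and T cell markers at 0.634 to 0.685% of UMIs, against 0.0064 to 0.00793% in CBs. Erythroid markers reached 0.114% of UMIs in transitioning cells of C, against 0.00362 to 0.00877% there in the other libraries.

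Nuclear members made up more of the transcriptome in CBs and transitioning cells than in CCs in all 4 mice. In CBs their summed share of UMIs was 2.76% (WT), 2.82% (C), 3.05% (K) and 2.85% (CK), or 2.87% ± 0.127 (SD, n = 4). In CCs it was 2.18% (WT), 2.33% (C), 2.52% (K) and 2.4% (CK), or 2.36% ± 0.140, and the ranges of the CB and CC libraries did not overlap. Transitioning cells held 2.93% ± 0.207, early CBs 2.67% ± 0.251 and the 8 to 49 recycling cells per library 2.93% ± 0.227. Prememory cells, at 2.43% ± 0.130, had a library range that overlapped that of CCs. T-like cells (2.22% ± 0.120), other B cells (1.85% ± 0.116) and plasma-like cells (1.43% ± 0.148) followed, the T-like range overlapping that of CCs.

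The mitochondrially encoded members took a different order. Their share was 4.69% ± 0.253 in CBs, 5.05% ± 0.305 in transitioning cells, 5.09% ± 0.251 in CCs and 5.47% ± 0.356 in prememory cells (n = 4 each). Library ranges overlapped between neighbours in that order, although within each mouse CCs exceeded CBs. Plasma-like cells, in which immunoglobulin genes took 44.1 to 50.3% of UMIs, had the smallest share at 2.24% ± 0.107, and other B cells the largest at 5.84% ± 0.286. For each nuclear member UMI there were 1.75 (WT), 1.56 (C), 1.5 (K) and 1.74 (CK) mitochondrially encoded ones in CBs. In CCs the ratio was 2.41 (WT), 2.06 (C), 1.97 (K) and 2.22 (CK), higher than in CBs in every mouse. It reached 2.87 to 3.65 in other B cells.

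**Figure D1:**
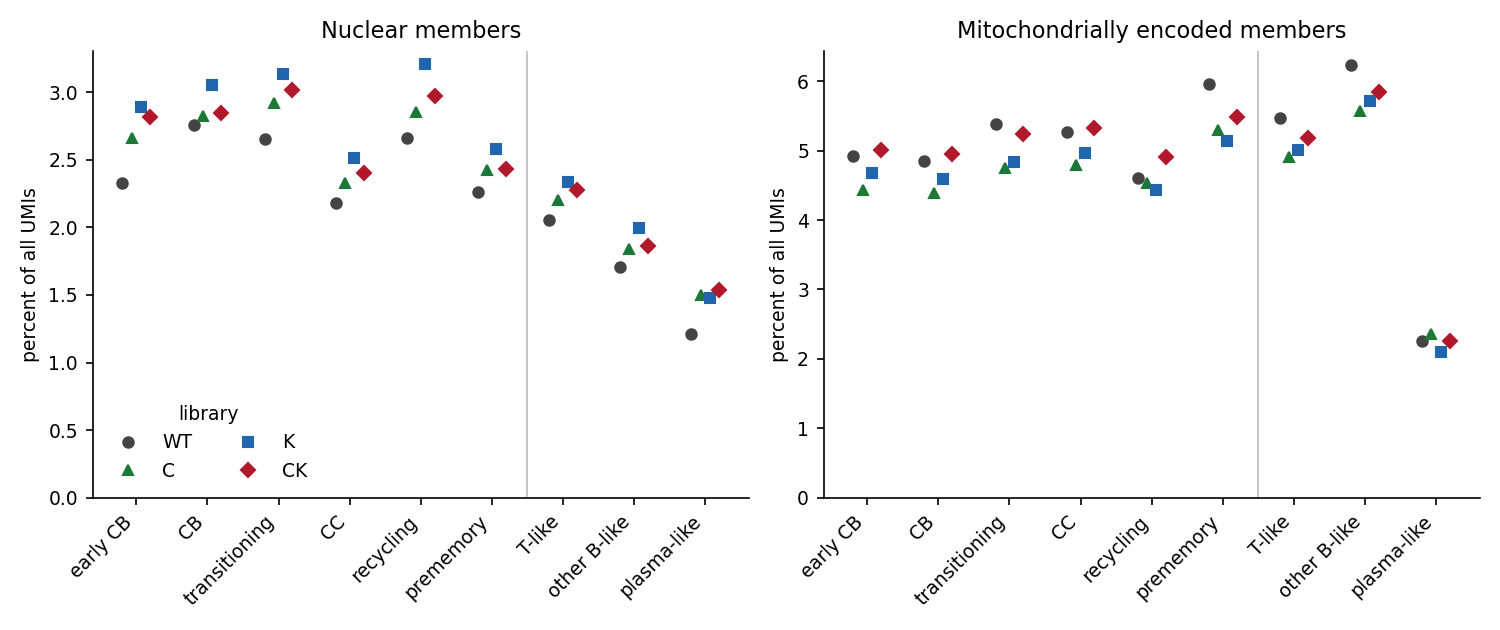
Share of all UMIs (y axis, percent) held by nuclear members (left) and mitochondrially encoded members (right) in each cell type (x axis), 1 point per library. Nuclear members were lower in CCs (2.18 to 2.52%) than in CBs (2.76 to 3.05%), whereas mitochondrially encoded members were higher in CCs than in CBs of the same library.

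A cell's share and its count of transcripts are different quantities. An annotated CB held on average 145.2 (WT), 139.3 (C), 166.5 (K) and 132.5 (CK) nuclear member UMIs. A CC held 104.5 (WT), 85.1 (C), 103.1 (K) and 69.4 (CK). The mean total of UMIs per CC was 4788 (WT), 3658 (C), 4097 (K) and 2894 (CK). Annotated CCs thus carried less captured RNA altogether than annotated CBs, and a smaller part of it for these genes. All these counts are bounded by the limit on genes per cell, which left out 467 (WT), 402 (C), 494 (K) and 478 (CK) CB-like cells. It left out 48 (WT), 18 (C), 18 (K) and 6 (CK) CC-like cells. The limit thus bears more on CBs, and the sizes of the differences between subtypes and between libraries depend on it.

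Comparing CCs with CBs asks how the machinery changes between light and dark zone cells. On the scale of summed CPM, the nuclear total in CCs over CBs was -0.34 (WT), -0.28 (C), -0.28 (K) and -0.25 (CK) in log2, a mean of -0.29 ± 0.038 (SD, n = 4). The mitochondrially encoded total went the other way in each mouse, by 0.12 (WT), 0.13 (C), 0.11 (K) and 0.10 (CK), a mean of 0.12 ± 0.011. With 4 mice an exact sign-flip permutation test cannot go below p = 0.125 (two-sided), which both totals reached. Beside them, the cytosolic ribosomal protein total was higher in CCs by 0.31 ± 0.034, at 20.3 to 24.9% of UMIs against 16.4 to 19.7% in CBs. The proteasome total was lower by a mean of -0.30 ± 0.040 and the mitochondrial ribosome total by -0.25 ± 0.057. How far the ribosomal share moved the other shares was not tested.

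Gene by gene, edgeR's quasi-likelihood test on counts summed per library and subtype called 8 of 85 tested nuclear members higher in CCs and 49 lower (adjusted p under 0.05). Of all 8983 genes tested, 26.8% were called higher and 26.5% lower, against 9.41% and 57.6% of the tested members. The median fitted log2 fold change was -0.21 over the tested members and 0.018 over all genes. The subtypes had been named from expression of the same cells, and the p-values are therefore read only against that background. Of the mitochondrially encoded members 10 of 13 were higher and 0 lower, with a median of 0.17, and 0 were lower at an unadjusted p under 0.05 or by DESeq2, which called 10 higher. Without the mouse as a block the test called 24 nuclear members lower, 3 higher and 1 mitochondrially encoded member higher. The count of nuclear members higher was 4 without CK and 5 without K. Here and in the other subtype contrasts, the share of all genes called is given for the main fit only. Counts from other settings are therefore not set against that background.

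Complex II, which alone carries no mitochondrially encoded subunit, had the lowest total in CCs relative to CBs, at -0.71 ± 0.072 in log2 CPM (n = 4). Sdhb accounted for most of its UMIs. Its level was 510 (WT), 449 (C), 502 (K) and 470 CPM (CK) in CBs against 258 (WT), 271 (C), 267 (K) and 266 CPM (CK) in CCs, with no overlap between the subtypes. Sdhb thus fell by 0.77 on the fitted log2 scale (SE 0.0573, edgeR adjusted p = 2.36e-19), and the membrane anchor Sdhd fell by 0.62 (SE 0.103, edgeR adjusted p = 4.21e-07). The other anchor, Sdhc (fitted log2 fold change -0.013), and the flavoprotein Sdha (-0.13) did not pass, with Sdha at 58.9 to 72.7 CPM in CCs and 66.0 to 90.4 CPM in CBs.

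In complex I, the NADH dehydrogenase, 3 of 36 nuclear members were higher and 22 lower in CCs, and the total was -0.28 ± 0.051. Ndufa5 went from 134, 166, 187 and 166 CPM in CBs to 89.1, 96.6, 115.5 and 99.7 CPM in CCs (WT, C, K and CK) and fell by 0.64 (SE 0.0666, edgeR adjusted p = 4.57e-13). Ndufa11, the complex I member with the most UMIs in CBs, stood at 425 to 455 CPM in CBs and 289 to 345 CPM in CCs and fell by 0.36. Both genes were lower in all 4 mice. The assembly factors diverged. Ndufaf2 fell by 0.81 (SE 0.136, edgeR adjusted p = 5.54e-07), from 22.9 to 40.3 CPM in CBs to 9.84 to 20.7 CPM in CCs. Ndufaf4 was the member with the highest fold change, at 0.79 (SE 0.127, edgeR adjusted p = 1.94e-07), but the mice did not move alike. Its CPM went from 39.5, 27.4, 21.0 and 24.6 in CBs to 37.2, 30.8, 47.5 and 47.6 in CCs (WT, C, K and CK), on 57 to 129 UMIs per library and subtype except WT CBs, which had 38. The other 6 assembly factors were not called in either direction, among them Ndufaf8 with the most UMIs in CBs.

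Complex III, the cytochrome bc1 complex, had a total of -0.094 ± 0.046, with 1 of 8 nuclear members higher and 4 lower. The higher one was Uqcrh, at 760 (WT), 788 (C), 820 (K) and 738 CPM (CK) in CBs and 915 (WT), 972 (C), 978 (K) and 944 CPM (CK) in CCs. It rose by 0.38 (SE 0.0446, edgeR adjusted p = 3.58e-11), and its highest CB library lay below its lowest CC library.

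In complex IV, cytochrome c oxidase, 10 of 12 tested members were lower, 1 was higher and the total was -0.405 ± 0.036. Cox6a1 stood at 378 to 404 CPM in CBs and 229 to 257 CPM in CCs, and Cox7a2 at 450 to 527 CPM in CBs and 293 to 320 CPM in CCs. They fell by 0.62 and 0.61, on fitted SEs of 0.0571 and 0.0537. Cox8a went from 1054, 1160, 1214 and 1105 CPM to 734, 801, 848 and 793 CPM (WT, C, K and CK) and fell by 0.43. Cox4i1, Cox6b1 and Ndufa4, the last now placed with complex IV, fell by 0.16, 0.31 and 0.46. Cox7b, at -0.080, did not pass. Cox7a2l, set apart from the complexes by role, was at 314 to 445 CPM in CBs and 316 to 422 CPM in CCs. It did not pass (fitted log2 fold change 0.042, edgeR adjusted p = 0.548).

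The tissue-restricted partners of these isoform pairs were near the limit of detection. Cox6b2, known from testis, had 7 to 30 UMIs per library in CBs (4.67 to 8.53 CPM) and 4 to 9 in CCs (2.12 to 3.32 CPM). It fell by 1.21 (SE 0.357, edgeR adjusted p = 0.00318), a call lost when cells above the gene limit were added. In prememory cells it had 0 UMIs in WT, K and CK, which allows up to 5.68, 10.1 and 11.3 CPM, and 1 UMI in C. Cox4i2, an isoform linked to hypoxia, had 14 UMIs in CBs of K and 0 to 7 in CBs of the other libraries. Cox7a1 had 2.89 to 4.88 CPM in CBs and 2.73 to 4.40 CPM in CCs. Cox6a2 had 0 to 2 UMIs per library in CBs and in CCs and 10 to 26 in the other B cells (2.10 to 7.12 CPM).

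In complex V, 2 of 15 members were higher and 10 lower, and the total was -0.25 ± 0.026. Atp5j, a stator subunit, went from 728 (WT), 754 (C), 870 (K) and 817 CPM (CK) to 429 (WT), 449 (C), 519 (K) and 507 CPM (CK) and fell by 0.65 (SE 0.0475, edgeR adjusted p = 9.28e-20). The 3 subunit c genes parted. Atp5g1 was at 288 (WT), 303 (C), 341 (K) and 354 CPM (CK) in CBs and 370 (WT), 393 (C), 436 (K) and 445 CPM (CK) in CCs, and rose by 0.43 (SE 0.0543, edgeR adjusted p = 3.02e-10). Atp5g3 was at 386, 433, 429 and 486 CPM in CBs and 266, 352, 338 and 345 CPM in CCs, and fell by 0.34 (SE 0.0532, edgeR adjusted p = 1.44e-07). Atp5g2, with the most UMIs of the 3, was at 883 to 1086 CPM in CBs and 805 to 952 CPM in CCs and fell by 0.13 (SE 0.0446, edgeR adjusted p = 0.00927). Atp5g1 was higher in CCs and both other genes lower in all 4 mice, and the subtype ranges of Atp5g1 and of Atp5g3 did not overlap while those of Atp5g2 did.

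**Figure D2:**
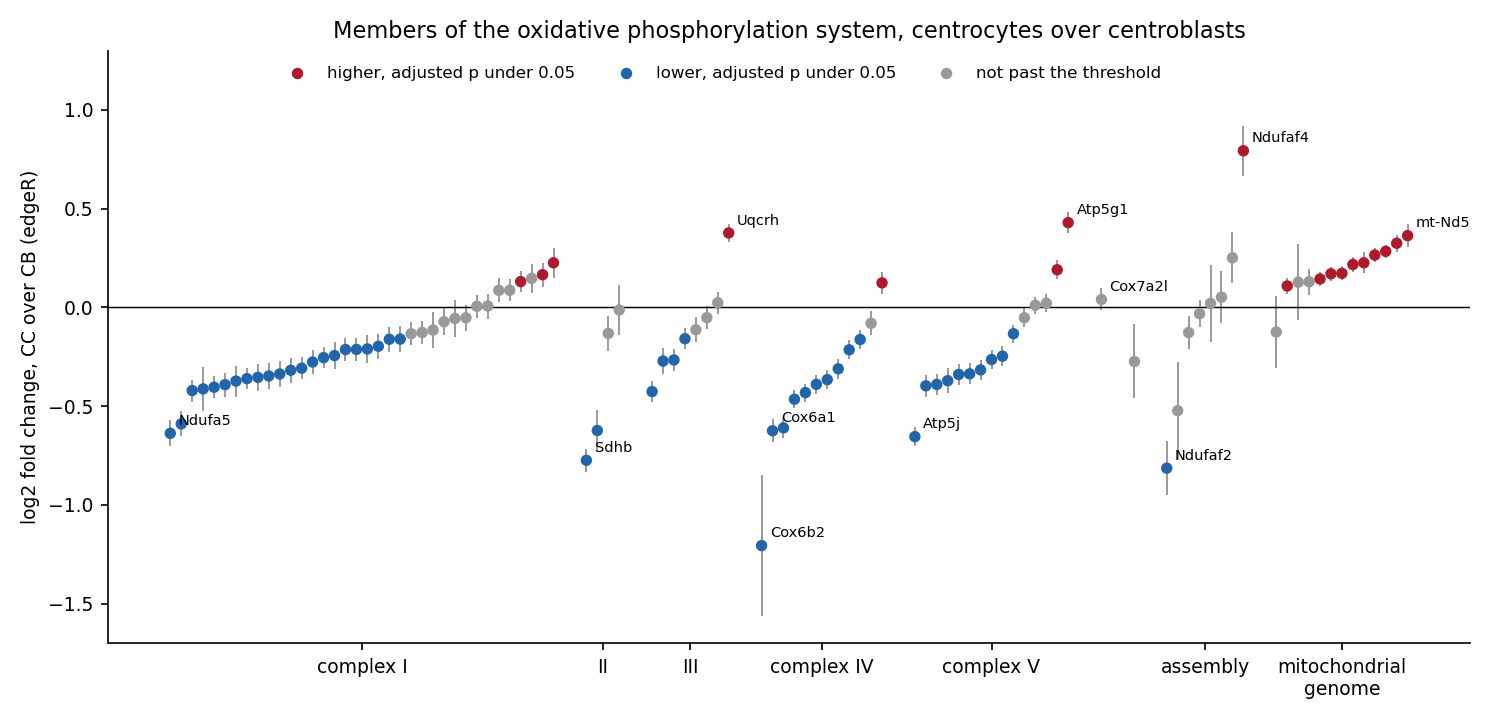
Fitted log2 fold change of CCs over CBs (y axis, edgeR) for each tested member, grouped by complex (x axis), with the SE as a bar, members called higher in red, those called lower in blue and the others in grey. Most nuclear members lie below 0 and the mitochondrially encoded members mostly above, with Ndufaf4, Atp5g1 and Uqcrh highest and Cox6b2, Ndufaf2 and Sdhb lowest among nuclear members.

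All mitochondrially encoded complex groups were higher in CCs, by 0.15 ± 0.026 for complex I, 0.14 ± 0.024 for complex III, 0.10 ± 0.011 for complex IV and 0.090 ± 0.0085 for complex V (log2 CPM, n = 4). mt-Nd2 was at 1680 (WT), 1356 (C), 1583 (K) and 1574 CPM (CK) in CBs and 2069 (WT), 1637 (C), 1822 (K) and 1835 CPM (CK) in CCs, and rose by 0.33 on the fitted scale (SE 0.0423). mt-Nd5 rose by 0.36 (SE 0.0588), from 351, 367, 167 and 318 CPM to 386, 443, 219 and 398 CPM, with K low in both subtypes. mt-Co1, mt-Nd4, mt-Nd3, mt-Cytb, mt-Co2, mt-Atp6, mt-Co3 and mt-Nd1 rose by 0.28, 0.27, 0.23, 0.22, 0.17, 0.17, 0.14 and 0.11. These folds are relative to TMM-scaled library sizes and lie above the CPM ratios: for mt-Nd1 those were 0.094 (WT), 0.036 (C), 0.0058 (K) and -0.0050 (CK). The members not called were mt-Nd4l (0.13), mt-Atp8 (0.13) and mt-Nd6 (-0.12).

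Other mitochondrial gene lists were counted the same way, beside the 26.8% higher and 26.5% lower of all genes. Of 43 assembly factors of the complexes, a list that includes the Ndufaf members given above, 9 were higher and 5 lower in CCs. Cycs, the cytochrome c gene, fell by 0.50. Of 14 TCA cycle genes, 1 was higher and 8 lower, and of 77 mitochondrial ribosomal protein genes 11 were higher and 30 lower. Of 16 genes for mitochondrial genome expression, 3 were higher and 5 lower (18.8% and 31.3%), and of 8 tested transcriptional regulators of respiration 2 were higher and 3 lower, shares near those of all genes. Of 94 cytosolic ribosomal protein genes 82 were higher and 4 lower, and of 38 proteasome genes 2 were higher and 30 lower.

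Transitioning cells lie between CBs and CCs in the annotation. In them 17 of 85 nuclear members were called higher than in CBs and 9 lower, or 20% and 10.6%, against 16.3% and 19.1% of all genes. The lower count was 5 without C and 21 with the cells above the gene limit. Without the mouse as a block 0 members were called by edgeR, nuclear or mitochondrially encoded, with 4 nuclear members higher and 0 lower at an unadjusted p under 0.05. With the block DESeq2 called 18 nuclear members higher and 8 lower. The count of higher nuclear members was 9 without CK and 11 without C or without K. The nuclear total was -0.058 (WT), 0.049 (C), 0.040 (K) and 0.083 (CK), on both sides of 0, whereas the mitochondrially encoded total was higher in all 4 mice, by 0.10 ± 0.035. Of complex III members 4 of 8 were higher and 0 lower. Cox7a2l rose by 0.44 (SE 0.0523, edgeR adjusted p = 1.19e-10), from 422, 353, 445 and 314 CPM to 587, 467, 584 and 449 CPM (WT, C, K and CK). Atp5g1 rose by 0.37 and Uqcrh by 0.20, both in all 4 mice. Ndufaf4 rose by 0.51 in the fit and was at 35.3 to 37.5 CPM in every library, since the CB libraries had differed. The 3 lowest fold changes were those of Cox6b2 (-0.505) and Ndufaf5 (-0.24), which did not pass, and Ndufa5, which fell by 0.27 (SE 0.0568). Of the mitochondrially encoded members mt-Nd2, mt-Nd3, mt-Nd4 and mt-Cytb were higher, by 0.16 to 0.19. The number called was 4 by edgeR, 7 by DESeq2, and 9 without the filter on low counts or with Scrublet calls removed.

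Early CBs had called members on both sides relative to CBs, with 10 of 85 nuclear members higher and 13 lower against 16.1% and 14.3% of all genes, or 11.8% and 15.3% of the members. The 3 lowest were Cox6b2, which fell by 1.56 on 81 UMIs, the complex I assembly factor Ndufaf3, which fell by 0.73 (SE 0.117), and Sdhb, which fell by 0.51 (SE 0.0654). The 3 highest were Ndufaf4, Ndufaf2 and Ndufaf6, another complex I assembly factor, which rose by 0.75, 0.68 and 0.64. Of the 8 assembly factors 3 were higher and 2 lower. Of the mitochondrially encoded members 6 were higher and 0 lower by edgeR, with 5 higher and 0 lower by DESeq2 and 0 lower at an unadjusted p under 0.05. Without the mouse as a block 4 nuclear members were higher and 3 lower, and 0 mitochondrially encoded members were called.

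Prememory cells carry the authors' label for cells that leave the GC towards memory. Their totals lay above those of CCs in all 4 mice, by 0.043 ± 0.017 for nuclear and 0.10 ± 0.067 for mitochondrially encoded members (log2 CPM, n = 4). The test called 17 of 85 nuclear members higher and 22 lower, or 20% and 25.9%, against 18.9% and 20.2% of all genes, a share near the background in each direction. Without C the higher count was 11. Of the 8 complex I assembly factors 3 were called higher and 1 lower, and their summed level was 320 ± 20.2 CPM in CCs and 458 ± 21.4 CPM in prememory cells. Without Ndufaf4 it was 279 ± 13.5 and 334 ± 17.5 CPM. Ndufaf4 was at 112 (WT), 129 (C), 125 (K) and 128 CPM (CK) in prememory cells, above every library of early CBs, CBs, transitioning cells and CCs, whose highest was 47.6 CPM, and rose by 1.47 over CCs (SE 0.146, edgeR adjusted p = 1.85e-13). Only the few recycling cells, at 54.3 to 177 CPM, overlapped that range. Ndufaf6 rose by 1.22 (SE 0.268), from 10.4 to 12.2 CPM in CCs to 23.7 to 32.2 CPM on 7 to 17 UMIs per library. Ndufaf2 rose by 0.81 (SE 0.239, edgeR adjusted p = 0.00452), to 20.8 to 39.5 CPM on 8 to 26 UMIs per library, and without C it did not pass (edgeR adjusted p = 0.124).

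Several of the members that distinguished CCs from CBs continued or turned back in prememory cells. Atp5g1 rose again, by 0.77, to 680 (WT), 750 (C), 824 (K) and 739 CPM (CK), so that its level increased from CBs to CCs to prememory cells in each mouse without overlap. Uqcrh turned, from 915 to 978 CPM in CCs to 577 (WT), 569 (C), 635 (K) and 563 CPM (CK), and fell by 0.80 (SE 0.0583, edgeR adjusted p = 3.48e-19). Cox7a2l, which was not called between CCs and CBs, fell by 1.17 (SE 0.0919, edgeR adjusted p = 8.74e-18). It reached 172 (WT), 137 (C), 243 (K) and 195 CPM (CK), below every CC library. Ndufa11 fell by 0.56 and Cox4i1 by 0.47, each in all 4 mice, and Sdhb fell further by 0.32. mt-Nd2, mt-Nd3 and mt-Nd1 rose by 0.29, 0.24 and 0.17, and mt-Co1 was called lower at -0.13 although its CPM was higher in 2 mice and lower in 2.

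Among the other lists, beside the 18.9% higher and 20.2% lower of all genes, 7 of 16 genes for mitochondrial genome expression were higher in prememory cells and 0 lower, as were 4 of 8 regulators with 0 lower. Of 77 mitochondrial ribosomal protein genes 23 were higher and 7 lower, and of 14 TCA cycle genes 2 were higher and 4 lower. Of 43 assembly factors, the Ndufaf members included, 10 were higher and 4 lower (23.3% and 9.30%). Cycs rose by 0.65.

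**Figure D3:**
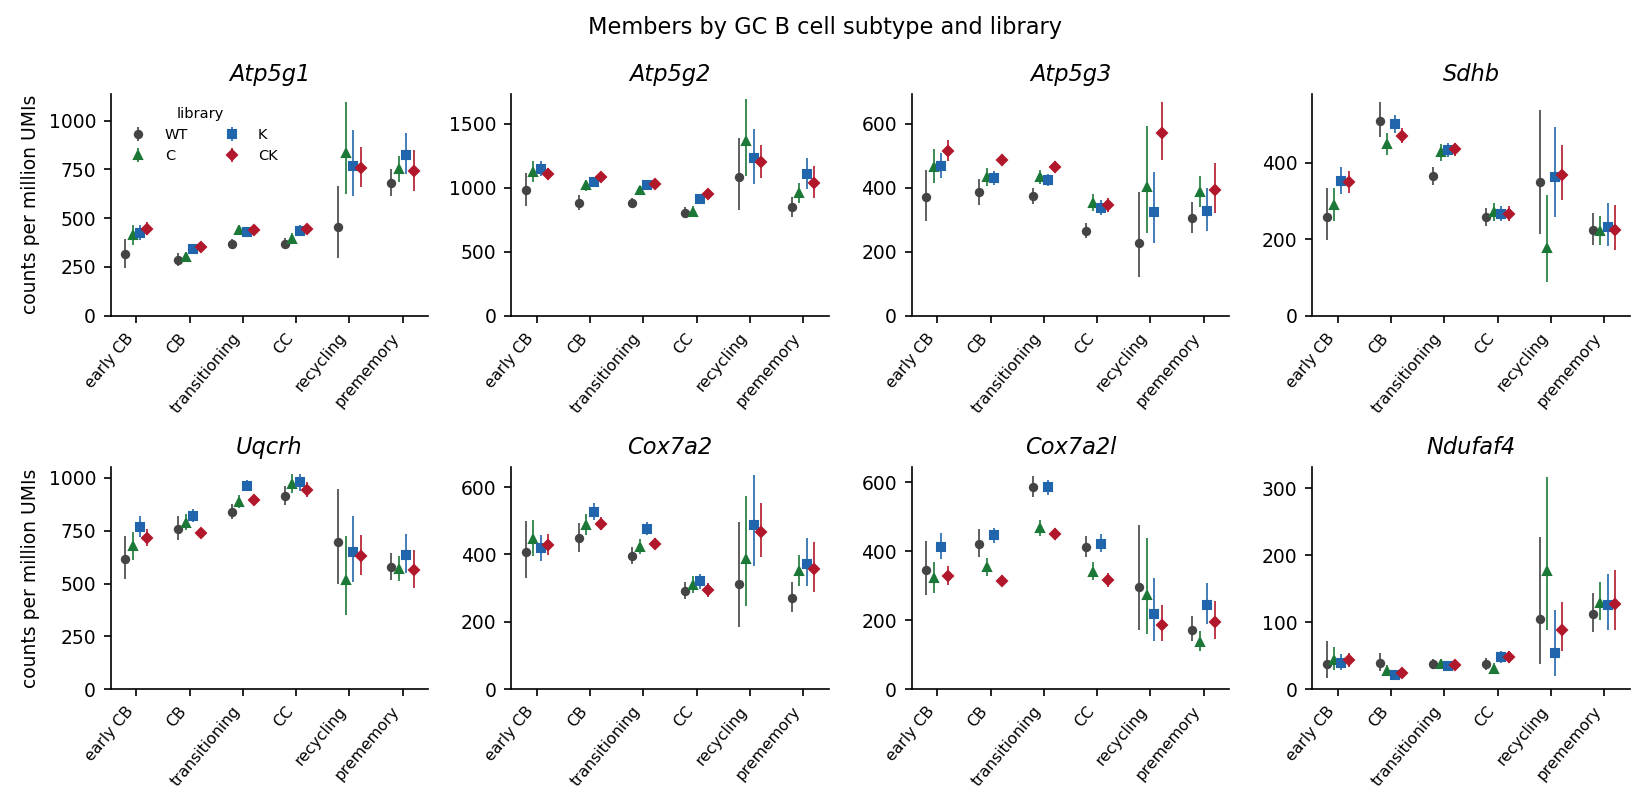
Level (y axis, CPM) of named members in the 6 annotated GC B cell subtypes (x axis), 1 point per library with its exact 95% Poisson interval, which covers counting error only. Atp5g1 was higher in prememory cells than in CBs (680 to 824 against 288 to 354 CPM), Sdhb lower in CCs than in CBs (258 to 271 against 449 to 510 CPM), and Cox7a2l and Uqcrh lower in prememory cells than in CCs.

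The authors' pseudotime orders the GC B cells along a single path, and cells were placed by the percentage of WT cells that came before them, in 5 bins. Nuclear members increased slightly into the second bin and then declined in every library. In WT they held 2.62, 2.72, 2.55, 2.29 and 2.05% of UMIs from the first to the last bin, and in CK 2.89, 3.0, 2.91, 2.75 and 2.30%. C and K had the same shape, with 2.83 and 3.02% in the first bin, 2.93 and 3.21% in the second and 2.23 and 2.35% in the last. The last over the first bin was -0.35 (WT), -0.34 (C), -0.36 (K) and -0.33 (CK) in log2. Mitochondrially encoded members held 4.97, 4.48, 4.63 and 5.02% in the first bin and 5.72, 5.09, 5.17 and 5.41% in the last (WT, C, K and CK), a difference of 0.20, 0.19, 0.16 and 0.11 in log2. The pseudotime was computed from the same transcripts, so these values describe and do not test the course.

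**Figure D4:**
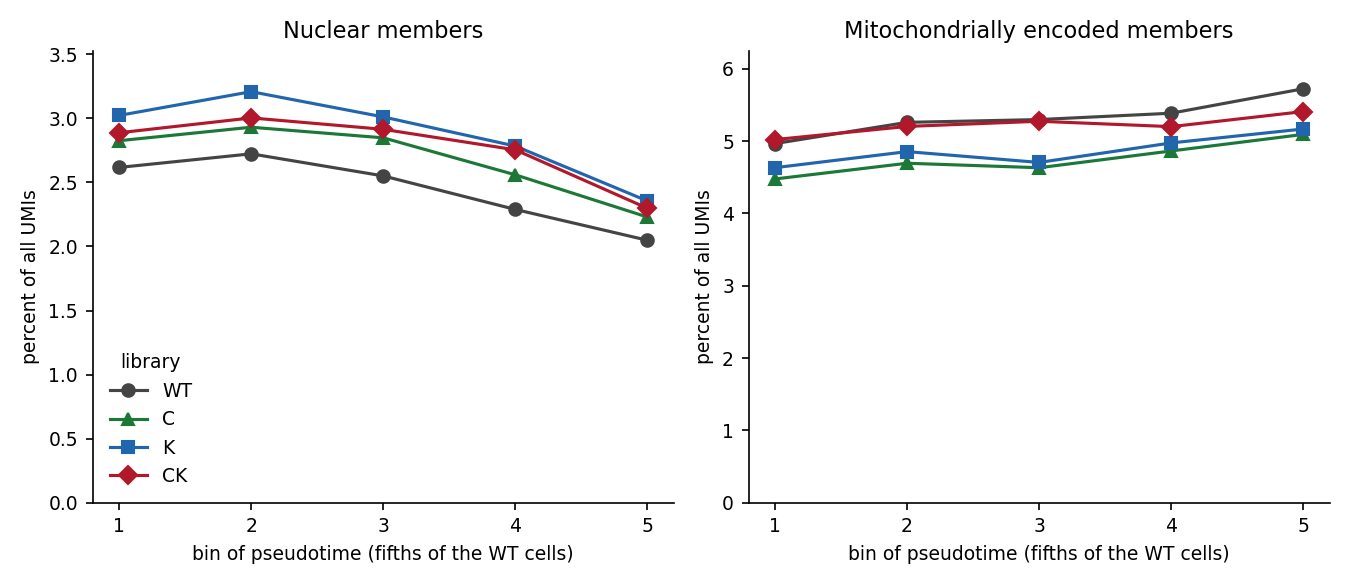
Share of UMIs (y axis, percent) of nuclear members (left) and mitochondrially encoded members (right) in 5 bins of pseudotime (x axis), each holding 20% of the WT cells, 1 line per library. Nuclear members reached 2.05 to 2.35% in the last bin, below the 2.62 to 3.02% of the first, while mitochondrially encoded members were higher in the last bin than in the first in each library.

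The floxed alleles ask whether losing 1 copy of Crebbp or Kmt2d alters these genes, and each genotype had 1 mouse, which leaves no test between genotypes. Ratios are given with exact 95% intervals that cover counting error only, beside the same ratio in T-like cells. At the targeted genes, Crebbp was at 64.4 (WT), 45.2 (C), 42.9 (K) and 39.9 CPM (CK) in CBs and at 78.9 (WT), 79.0 (C), 47.6 (K) and 64.4 CPM (CK) in T-like cells. In CCs it was at 61.8 (WT), 41.4 (C), 38.3 (K) and 33.6 CPM (CK). Kmt2d was at 24.9 (WT), 15.4 (C), 8.53 (K) and 16.1 CPM (CK) in CBs and at 26.1 (WT), 30.6 (C), 15.7 (K) and 26.1 CPM (CK) in T-like cells. In CCs Kmt2d was at 16.4 (WT), 27.6 (C), 15.98 (K) and 17.0 CPM (CK), on 30 to 52 UMIs per library, so that its order among the libraries differed between the subtypes. Both transcripts were lowest in K among the T-like cells, and 3' ends outside the deleted exons would not check the genotypes.

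WT had the lowest nuclear member share of the 4 libraries in each of the 9 cell types compared, T-like cells and other B cells included. In CBs the nuclear total over WT, in log2, was 0.032 for C (interval 0.011 to 0.053), 0.145 for K (0.126 to 0.165) and 0.046 for CK (0.027 to 0.065). In CCs the values were 0.092 (C), 0.205 (K) and 0.136 (CK). T-like cells of the same libraries gave 0.097, 0.183 and 0.145, above the CB values and near the CC values. These cells pool several clusters in parts that differed between libraries. The cluster led by Izumo1r, Maf and Tnfrsf4 gave 452 of 1349 (WT), 444 of 1667 (C), 573 of 1483 (K) and 937 of 2753 (CK). What this does to the T-like ratios was not tested. Relative to T-like cells the CB values became -0.066 (C), -0.037 (K) and -0.0995 (CK), and the CC values -0.0050, 0.023 and -0.0090. Annotated CBs numbered 183 (WT), 421 (C), 645 (K) and 1013 (CK). The limit of about 2500 genes removed 467, 402, 494 and 478 further CB-like cells, a part that differed between libraries and was largest in WT. With these cells the CB values were 0.12 (C), 0.225 (K) and 0.13 (CK). A genotype difference and a difference between mice or libraries cannot be told apart here.

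Member by member, a fold of 1.2 served as the limit. The 12 results rerun with a fold of 1.5 all moved, so these counts depend on that limit. In CBs 10 of 86 nuclear members were higher in CK than in WT past that fold and 11 lower, or 11.6% and 12.8%, against 25.4% and 30.7% of all genes. In C 9 of 85 were higher and 6 lower, or 10.6% and 7.06%, against 22.7% and 24.9%. Relative to the median gene, CK had 15 members higher and 7 lower in CBs, against 28.1% and 27.0% of all genes. In CCs 18 of 84 were higher and 2 lower in CK, or 21.4% and 2.38%, against 24.1% and 19.8% of all genes. In C 8 were higher and 4 lower, or 9.52% and 4.76%, against 20.9% and 19.5%.

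The K library stood apart at large. The median gene was lower in K than in WT, by a log2 ratio of -0.15 in CBs, -0.14 in CCs and -0.18 in T-like cells. The ratio of K to WT had a rank correlation with the longest annotated transcript of each gene of -0.39 in CBs, -0.48 in CCs and -0.49 in T-like cells (across 8291, 8294 and 10006 genes, which share 1 pair of libraries and are no replicates). The same correlation was 0.011, -0.056 and -0.10 for C and 0.012, -0.086 and -0.18 for CK. Nuclear members have short transcripts, with a median of 1046 bases against 3195 bases for genes with at least 20 UMIs. In K 20 of 86 members were higher than in WT in CBs and 4 lower, against 18.3% and 41.7% of all genes, and 24 of 84 were higher and 2 lower in CCs, against 17.2% and 41.1%. Relative to the median gene 46 of 86 were higher and 3 lower in CBs, against 29.2% and 32.2% of all genes. In CCs 63 of 84 were higher and 1 lower, against 28.7% and 31.8% of all genes, and 70 of 84 were higher in T-like cells, against 25.9%. The part of transcript length in these values was not tested.

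Mitochondrially encoded totals over WT in CBs were -0.14 (C), -0.077 (K) and 0.033 (CK), and in CCs -0.14, -0.088 and 0.013. In T-like cells they were -0.16, -0.13 and -0.079. Their direction depended on the reference. Relative to the median gene the K values became 0.076 in CBs and 0.055 in CCs, and CK in CCs became -0.026. Relative to T-like cells every CB and CC value was above 0, from 0.014 (C in CBs) to 0.11 (CK in CBs), and with the cells above the gene limit CK in CBs was -0.031. In CK mt-Nd3 was at 342 CPM in CCs against 429 CPM in WT, a log2 ratio of -0.33 (-0.47 to -0.19), and at -0.52 in T-like cells.

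**Figure D5:**
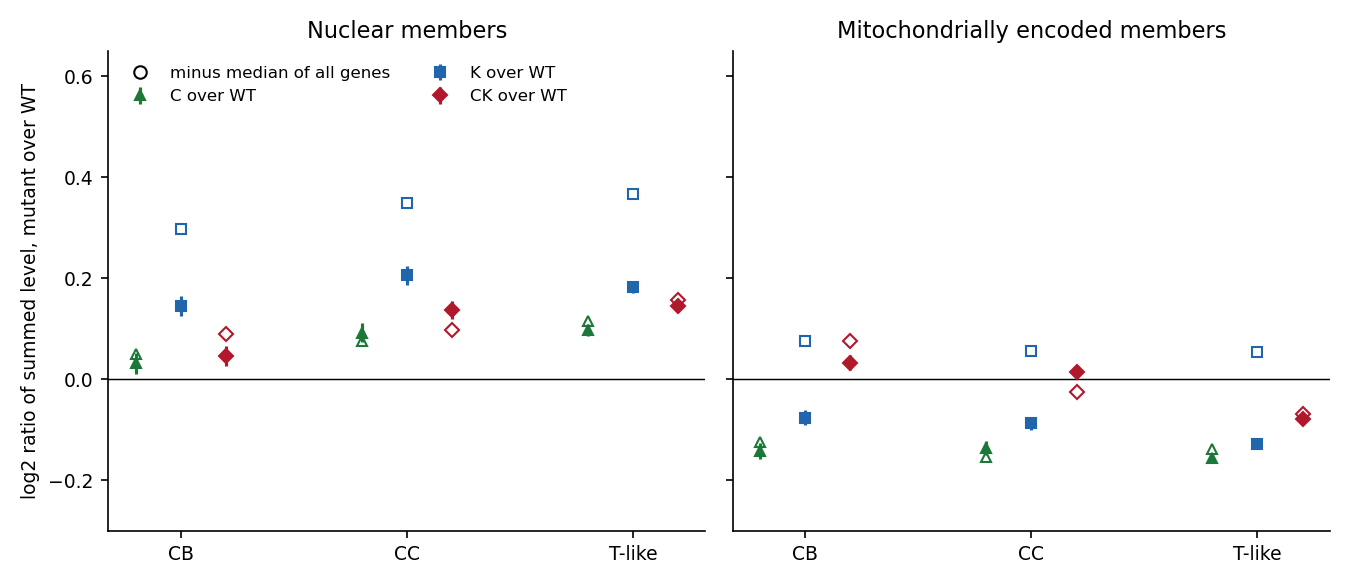
Log2 ratio of the summed level in each mutant library over WT (y axis) for nuclear and mitochondrially encoded members, by cell type and genotype (x axis), with exact 95% counting intervals as bars and open markers for the ratio minus the median of all genes. For nuclear members T-like cells lay above 0 as CBs and CCs did, at 0.097 (C), 0.183 (K) and 0.145 (CK), each above the CB value. For mitochondrially encoded members CK over WT was 0.033 in CBs and 0.013 in CCs but -0.079 in T-like cells.

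Many of the members with the highest and lowest ratios of CK to WT had few UMIs. In CBs the highest log2 ratios were those of Ndufaf6 at 1.05 (-0.15 to 2.56, on 61 and 6 UMIs), Ndufaf2 at 0.82 (0.18 to 1.53) and Ndufab1, the mitochondrial acyl carrier protein, at 0.405 (0.16 to 0.65). The lowest were those of Ndufaf5 at -0.97 (-1.79 to -0.093), mt-Atp8 at -0.885 (-1.65 to -0.065, on 53 and 20 UMIs) and Ndufaf4 at -0.68 (-1.22 to -0.11). T-like cells gave 0.41 for Ndufaf6, 0.53 for Ndufaf2, 0.16 for Ndufab1, 0.032 for Ndufaf5, -0.45 for mt-Atp8 and 0.035 for Ndufaf4. In CCs the highest were Ndufaf2 at 1.07 (0.28 to 1.92), Ndufb4 at 0.43 (0.19 to 0.68) and Ndufs5 at 0.38 (0.16 to 0.60), against 0.53, 0.034 and 0.26 in T-like cells. Apart from mt-Nd3, the lowest were Cox7a2l at -0.39 (-0.53 to -0.24) and mt-Nd6 at -0.34 (-1.09 to 0.41), against -0.18 and 0.024 in T-like cells. Ndufaf4, low in CK CBs, was at 39.5 CPM in CBs of WT and 24.6 CPM in those of CK, and at 27.4 and 21.0 CPM in C and K, so that the WT library was the high one. Ndufaf2 was higher in CK than in WT in all 3 cell types and Cox7a2l lower in all 3, on ratios whose intervals exclude 0.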

How the data were processed

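Droplet 3' RNA-seq libraries of 4 mice, 1 per genotype, were analysed from the matrices of raw UMI counts that the authors deposited, with no normalization. The submitters' processing notes name Cell Ranger 3.0, Seurat 4.0 and mm10. By the study's methods, subtypes were assigned by label transfer in Seurat and pseudotime was computed with slingshot on the GC B cells. A deposited cell table gave the authors' subtype, the UMI and gene counts of each cell, the deposited percent of mitochondrial UMIs and a pseudotime rank, a deposited score. Its highest value in each mutant library (3268 in C, 3810 in K, 5180 in CK) equalled that library's cells plus the 1227 WT cells, and it was read on that ground as a rank among both. UMI counts in that table equalled the matrix sums in 76.0 to 83.6% of cells and differed by at most 5 elsewhere. Deposited module scores and velocity values were not used. The limits of 8% mitochondrial UMIs and 2500 genes were read from the annotated cells. The members and gene lists were chosen with earlier results of these data known.

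UMIs were summed per library and subtype. Subtypes were compared with edgeR 4.0.16 in R 4.3.3 (TMM, filterByExpr, quasi-likelihood test, Benjamini-Hochberg adjustment over all 8983 genes tested, threshold 0.05) with all 4 libraries and 5 subtypes in 1 fit. The recycling cells were left out of the fit. The library was kept as a block because the subtypes of a library come from the same mouse. The block takes out differences between libraries, so the p-values rest on how far subtype differences varied among the 4 mice, which differed in genotype. That spread is estimated over all 5 subtypes together. DESeq2 1.42.0, RLE scaling, no filter on low counts, only the 2 subtypes compared, thinning to 2000 UMIs per cell, removal of Scrublet calls, addition of cells above the gene limit, omission of mitochondrial and immunoglobulin genes and leaving out each library were the alternatives. On simulated counts of 8983 genes for CCs over CBs, 98% of 100 genes changed by 1 on the log2 scale were recovered, 50% of 100 changed by 0.5, and 0.0683% of unchanged genes were called. All simulated libraries shared the same pooled mean profile and the same fixed spread, with no difference between mice, and only genes with many UMIs were changed. These rates are therefore not error rates for the real mice or for members with few UMIs.

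Genotypes were compared without a test, as log2 ratios of summed CPM with exact conditional binomial intervals, and levels have exact Poisson intervals (both 95%). PCR and capture error lie outside them, so that intervals and floors (3 UMIs) cover counting error only. Members with at least 20 UMIs in a pair were counted past a fold of 1.2. Pseudotime position was the percentage of WT cells that came before a cell.

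All cells under the mitochondrial limit were clustered with scanpy 1.11.5 (2000 variable genes, 30 components, 15 neighbours, Leiden resolution 1, seed 7). Clusters were named from markers listed in the design, and their cells outside the annotation served as T-like, other B-like or plasma-like cells. Of 31718 barcodes in 19 clusters, 18.5 to 22.5% per library lay in unnamed clusters. Cells above the gene limit took the majority subtype of their 25 nearest annotated cells. Scrublet marked 3.59 to 5.31% of barcodes, and in C, where its automatic threshold marked 0%, the median threshold of the other libraries (0.204) was used. Doublet calls were removed only as an alternative.

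The genes named, among members with at least 50 UMIs in the groups compared, were the 5 highest and 5 lowest fold changes of CCs over CBs and the 3 highest and 3 lowest of the other contrasts and of CK over WT. With them came the member at the highest level in CBs for each complex, the mitochondrially encoded members, every member of an isoform pair, those under 20 UMIs and the targeted genes. Sdha, Sdhc and Sdhd, and the 3 highest and 3 lowest members in early CBs, were chosen after their values were seen. Gene positions and transcript lengths came from GENCODE vM21, and promoters from RefSeq on GRCm38.p6, matched by symbol for 76 of 93 nuclear members.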

Additional observations from a re-analysis of the deposited data

Results flagged for a closer look

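A pair of totals had libraries or cell types on opposite sides of 0, and these differences were not tested. The nuclear total in transitioning cells over CBs was below 0 in WT (-0.058 in log2) and above 0 in C (0.049), K (0.040) and CK (0.083). Among these, complex I alone gave -0.088 (WT), 0.038 (C), 0.023 (K) and 0.075 (CK). The mitochondrially encoded total of CK over WT was 0.033 in CBs and 0.013 in CCs in the GC, against -0.079 in T-like cells. Each value rests on 1 mouse per genotype.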

How the results depend on the processing

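The subtype counts depended most on the mouse block, whose pairing is that subtypes of a library come from the same mouse. Shares of all genes called are given for the main fit only, so counts under other settings are not read as results about the members. Without it edgeR called 3 nuclear members higher and 24 lower and 1 mitochondrially encoded member higher in CCs over CBs. It called 0 higher and 0 lower nuclear and 0 higher mitochondrially encoded members in transitioning cells over CBs. For prememory cells over CCs it called 9 higher and 12 lower nuclear members, with 0 higher and 0 lower mitochondrially encoded ones. Without the filter on low counts 4 nuclear members were higher in CCs, 3 were lower and 9 mitochondrially encoded members higher in transitioning cells, and 1 mitochondrially encoded member was higher and 2 lower in prememory cells. With cells above the gene limit, 1 mitochondrially encoded member was lower in CCs, 21 nuclear members were lower in transitioning cells and 2 mitochondrially encoded members were lower in prememory cells, while Cox6b2 (0.12) and Ndufaf5 (0.021) changed sign in transitioning cells. The count of mitochondrially encoded members higher in transitioning cells was 7 by DESeq2 and 9 with Scrublet calls removed, and that of those lower in prememory cells was 0 with RLE scaling and 0 with only the 2 subtypes compared. With cells thinned to 2000 UMIs 5 nuclear members were lower in transitioning cells, and 11 nuclear and 1 mitochondrially encoded member were higher in prememory cells. Leaving out 1 library gave 4 to 6 nuclear members higher, 45 to 51 lower and 9 to 10 mitochondrially encoded higher (0 lower) in CCs, 9 to 19, 5 to 9 and 4 in transitioning cells, and 11 to 17, 15 to 19, 2 to 3 higher and 0 to 1 lower in prememory cells. The lowest came without CK (4 in CCs and 9 in transitioning cells) and without C (5 lower in transitioning cells, 11 higher and 0 mitochondrially encoded lower in prememory cells), and without K the counts higher were 5 and 11 in CCs and transitioning cells.

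Nuclear totals over WT in log2 (C, K and CK) with cells above the gene limit were 0.12, 0.225 and 0.13 in CBs, and 0.10 for CK in CCs. Relative to the median gene they were 0.30 (K) and 0.089 (CK) in CBs and 0.35 (K) and 0.097 (CK) in CCs. Relative to T-like cells they were -0.066, -0.037 and -0.0995 in CBs and -0.0050, 0.023 and -0.0090 in CCs. Thinned, K in CCs was 0.18. Mitochondrially encoded totals with cells above the gene limit were -0.19, -0.13 and -0.031 in CBs. Relative to the median gene they were -0.12, 0.076 and 0.076 in CBs and -0.15, 0.055 and -0.026 in CCs. Relative to T-like cells they were 0.014, 0.052 and 0.11 in CBs and 0.020, 0.041 and 0.093 in CCs. Thinned, they were -0.066 (K) and 0.038 (CK) in CCs. Last over first pseudotime bin with 10 bins was -0.31 (WT), -0.41 (K) and -0.38 (CK) for nuclear and 0.28 (WT), 0.22 (C), 0.24 (K) and 0.12 (CK) for mitochondrially encoded members. By rank within the own library it was -0.32 (C), -0.27 (K) and -0.27 (CK), and 0.22 (C) and 0.13 (CK). The cause of these changes was not tested. Depth limits the low members, such as Cox6b2, mt-Atp8 and Ndufaf6, and recycling cells.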
